A study of Homo sapiens with 23 samples.

Results

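The genes described here are 8 actin regulators and myosins, most of them known from leukocytes, out of 28395 genes in a count table of 4 human multiple myeloma lines. They are gelsolin (GSN), the capping protein CAPG, the plastins LCP1 and PLS3, the coronin CORO1A, and the myosins MYO1F, MYO1G and MYO7A, found by their symbols in the table. The members were chosen by their levels and IRF4 guide effects in these same libraries, so those values are a description and carry no p-value. A low-count filter left 16468 genes for the model fit, and 7 of the 8 passed it. MYO1G did not.

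The study sequenced RNA from H929, MM1S, OPM2 and RPMI-8226, lines of malignant plasma cells, after 48 h of doxycycline, which induced the guide RNA in every group. In each line the libraries carried either a guide against IRF4, a transcription factor of plasma cells and myeloma, or a guide labelled EV, a name the labels do not explain. There were 3 libraries in each of the 8 groups, except the EV guide group of MM1S, which had 2 (replicates 2 and 3). All groups shared the doxycycline, the labels show a single guide against IRF4, and they do not tell if replicates came from separate cultures or if a line was 1 clone. P-values therefore measure the spread between these libraries, which may be technical.

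Actin filaments in leukocytes are built, cut, capped, bundled and pulled on by separate protein families. Gelsolin severs filaments and caps their fast-growing end, CAPG caps that end without severing, plastins bundle filaments, coronins bind filaments and influence their turnover, and myosins are motors that move along them. Many of these proteins exist as a blood cell form and a more widely expressed form, as with LCP1 (L-plastin, the leukocyte form) and PLS3 (T-plastin, made mainly in cells other than blood cells).

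Library totals ran from 6907390 to 28486960 counts. Levels are library-size-scaled counts (CPM) with trimmed mean of M-values factors, and log2 fold changes are IRF4 guide over EV guide with their standard error (SE). IRF4 itself averaged 736 ± 142 CPM under the IRF4 guide and 2199 ± 19.1 CPM under the EV guide in H929, 265 ± 32.3 and 683 ± 58.6 in MM1S, 1039 ± 252 and 1640 ± 361 in OPM2, and 210.2 ± 34.7 and 451 ± 37.7 in RPMI-8226 (SD, n = 3, and n = 2 for EV in MM1S). The groups overlapped in OPM2 only among the 4 lines. The labels do not say where the IRF4 guide cuts, and a cut site need not lower the RNA.

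The sequences before the annotated start sites are given for the members on which the results turn. Of the 8 members, 7 had windows in RefSeq (GRCh38.p14), 16 windows in all, and the 250 bases before each start were searched on both strands for 3 DNA patterns known for IRF4 or its ETS-family partners: the ETS and IRF composite element (GGAANNGAAA), the interferon response element (GAAANNGAAA) and an ETS core (GAGGAAGT). A further pattern, GGAAGTGA, which shares GGAAGT with the ETS core, was added after the windows had been read. Of 34943 windows of this length in the table, 2.41% held the composite element, 3.02% the interferon response element, 2.17% the ETS core and 2.88% GGAAGTGA. MYO7A had no window and was not searched. No member window held the composite or interferon response pattern, and 4 members held 1 of the other patterns or both. The ETS core was found for GSN and LCP1, and GGAAGTGA for CAPG, LCP1 and MYO1F. Some members have several windows, so the count of members cannot be set against the shares per window. The matched stretches read 5′ to 3′ on the strand of the gene, with the match in capitals.
MYO1F, chr19:8577452-8577481, minus strand: ctcccgccaaaGGAAGTGAgaaggggctgt
LCP1, chr13:46182207-46182236, minus strand, where the match lies on the opposite strand: tgtcattctagTCACTTCCtgccttgtgac
LCP1, chr13:46182352-46182381, minus strand: aaaaaaaaaaaGAGGAAGTggtaggaggtg
CAPG, start 1 of 4, chr2:85414219-85414248, minus strand: aacgattgaatGGAAGTGAacactgcaatt
CAPG, start 3 of 4, chr2:85410354-85410383, minus strand: agaagtaagagGGAAGTGAgaagccgggtg
Counted from the start, where -1 is the base before it, the MYO1F match ran from -28 to -21, and those of LCP1 from -48 to -41 and from -193 to -186. The 2 CAPG matches ran from -221 to -214 and from -63 to -56 of their own starts. Parts of these windows lie in exons of the GENCODE annotation, counted on either strand. They cover 135 of the 250 bases for MYO1F, 147 for LCP1, 58 for CAPG start 1 and 237 for CAPG start 3. These matches are letters in a window and show no binding.

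GSN has 6 annotated starts spread over much of the gene, and PLS3 has 2. The window of the third GSN start held the ETS core, in capitals here, from -147 to -140, while the other GSN windows and both PLS3 windows held none of the 4 patterns. Gene counts do not show which start was used. GSN stood highest against its EV level in H929, and PLS3 is the member that was lower under the IRF4 guide, which is why these windows are shown whole.
GSN, start 3, chr9:121285855-121286104, plus strand: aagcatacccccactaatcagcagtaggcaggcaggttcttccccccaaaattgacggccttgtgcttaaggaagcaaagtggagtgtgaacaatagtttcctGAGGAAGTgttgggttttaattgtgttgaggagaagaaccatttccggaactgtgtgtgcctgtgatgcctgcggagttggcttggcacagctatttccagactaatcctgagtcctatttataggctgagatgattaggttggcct
PLS3, start 1, chrX:115560924-115561173, plus strand: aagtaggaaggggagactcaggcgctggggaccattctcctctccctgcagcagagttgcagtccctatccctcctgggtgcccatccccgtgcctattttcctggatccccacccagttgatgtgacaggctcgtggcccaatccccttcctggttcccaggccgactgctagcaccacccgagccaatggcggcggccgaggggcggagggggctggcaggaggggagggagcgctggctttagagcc

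Among the severing and capping proteins, GSN (Entrez 2934, chr9:121201483-121332842) was scarce in every EV group and higher under the IRF4 guide in every line. In H929 it stood at 203, 199.7 and 167 CPM under the IRF4 guide, against 3.79, 2.25 and 4.33 CPM under the EV guide. OPM2 libraries had 40.9, 39.8 and 38.4 CPM under the IRF4 guide and 0.928, 0.830 and 0.661 CPM under the EV guide. RPMI-8226 libraries had 37.0, 18.8 and 44.9 CPM under the IRF4 guide and 5.06, 3.76 and 4.61 CPM under the EV guide. MM1S had the lowest IRF4 guide levels, 7.41, 8.50 and 11.2 CPM, against 1.73 and 3.24 CPM under the EV guide. The groups did not overlap in any of the 4 lines. The fitted fold changes were 51.1-fold in H929 (log2 5.68 ± 0.28, SE), 48.7-fold in OPM2 (5.61 ± 0.35, and 4.79 from the deposited log2 RPKM), 7.53-fold in RPMI-8226 (2.91 ± 0.27) and 3.51-fold in MM1S (1.81 ± 0.45).

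The GSN difference in MM1S rested on few counts in its 2 EV libraries, 17 and 29. Without EV replicate 2 of MM1S its log2 fold change was 1.41 and no longer passed the threshold used for all genes. RefSeq places RAB14, which had 71198 counts over all libraries against 16366 for GSN, and the antisense gene GSN-AS1, with 18 counts, over part of the GSN span. The strand setting of the counting is not stated in the labels or processing notes, so reads of GSN and of these neighbours cannot be told apart where they overlap.

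CAPG (Entrez 822, chr2:85391602-85419540) stayed at or under 12.4 CPM in every library. OPM2 libraries under the IRF4 guide had 3.504, 2.71 and 3.36 CPM, against 0.483, 0.119 and 0 CPM under the EV guide, where the counts were 13, 1 and 0. RPMI-8226 had 12.4, 10.5 and 8.72 CPM under the IRF4 guide and 3.91, 5.52 and 5.38 CPM under the EV guide. The groups were apart in these lines, with log2 fold changes of 3.72 ± 0.42 in OPM2 and 1.11 ± 0.24 in RPMI-8226. The RPMI-8226 value no longer passed the threshold in a fit of the deposited log2 RPKM values (1.02). Without EV replicate 1 of OPM2, which held 13 of the 14 EV counts, the OPM2 value was 6.36 and the average over lines 2.11, against 1.45 ± 0.17 with it. Without EV replicate 3 of OPM2 the OPM2 value was 3.03.

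CAPG differed less in the other lines. H929 libraries had 2.92, 4.10 and 3.19 CPM under the IRF4 guide and 2.48, 1.25 and 2.75 CPM under the EV guide (log2 0.50 ± 0.29). MM1S libraries had 5.72, 4.15 and 5.13 CPM under the IRF4 guide and 4.08 and 3.24 CPM under the EV guide (log2 0.47 ± 0.33). The IRF4 guide libraries were all above the EV guide libraries in both, but neither difference passed the threshold. ELMOD3, which overlaps CAPG in RefSeq, had 2549 counts over all libraries against 1871 for CAPG.

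The plastins differed in kind between the lines. LCP1 (Entrez 3936, chr13:46125923-46182177), which bundles filaments in leukocytes, was abundant in MM1S and RPMI-8226 under either guide and scarce in H929 and OPM2 under the EV guide. OPM2 libraries had 117, 124 and 89.1 CPM under the IRF4 guide and 9.69, 6.52 and 5.64 CPM under the EV guide. H929 libraries had 148, 150.2 and 140.5 CPM under the IRF4 guide and 39.2, 35.8 and 41.3 CPM under the EV guide. Both lines with low EV levels thus had LCP1 clearly higher under the IRF4 guide, by log2 3.87 ± 0.14 in OPM2 and 1.90 ± 0.12 in H929, and still far under the other 2 lines.

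In MM1S, LCP1 stood at 1702, 1631 and 1743 CPM under the IRF4 guide and 1657 and 1776 CPM under the EV guide, ranges that overlapped (log2 -0.02 ± 0.12). RPMI-8226 libraries had 1213, 1099 and 1193 CPM under the IRF4 guide and 1369, 1337 and 1265 CPM under the EV guide. Here every IRF4 guide library was below every EV guide library, by log2 -0.18 ± 0.11, which did not pass the threshold. It did pass when each line was fitted alone (-0.21) and with a replicate block within each line (-0.18).

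PLS3 (Entrez 5358, chrX:115561174-115650861), the plastin of cells outside the blood, was lower, not higher, where it differed. RPMI-8226 libraries had 6.03, 5.22 and 7.56 CPM under the IRF4 guide, against 110.2, 107.7 and 116 CPM under the EV guide. OPM2 libraries had 31.9, 33.4 and 38.9 CPM under the IRF4 guide and 58.9, 52.9 and 58.3 CPM under the EV guide. PLS3 was thus lower under the IRF4 guide, without overlap, in both lines where it was well expressed. The fitted change was 17.7-fold down in RPMI-8226 (log2 -4.15 ± 0.14) and 1.64-fold down in OPM2 (-0.71 ± 0.12).

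In H929, PLS3 had 2.28, 3.02 and 1.64 CPM under the IRF4 guide and 2.04, 3.00 and 1.82 CPM under the EV guide, which overlapped. MM1S libraries held only 2, 2 and 0 PLS3 counts under the IRF4 guide and 0 and 1 counts under the EV guide, too few for a direction. The OPM2 difference did not pass the threshold in a fit of the deposited log2 RPKM values (-0.66).

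CORO1A (Entrez 11151, chr16:30183602-30189076), the coronin of blood cells, was abundant in all 23 libraries, with an average difference of log2 0.59 ± 0.04. H929 libraries had 1946, 1972 and 1741 CPM under the IRF4 guide and 1019, 1033 and 990.3 CPM under the EV guide. OPM2 libraries had 527, 592 and 473 CPM under the IRF4 guide and 313, 293 and 326 CPM under the EV guide. MM1S libraries had 962, 943 and 916 CPM under the IRF4 guide and 631 and 706 CPM under the EV guide. The IRF4 guide groups lay wholly above the EV guide groups in these lines, by log2 0.90 ± 0.08 in H929, 0.77 ± 0.08 in OPM2 and 0.49 ± 0.09 in MM1S.

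In RPMI-8226, CORO1A had 1092, 1183 and 1019 CPM under the IRF4 guide and 966, 948 and 968 CPM under the EV guide. The groups did not overlap, but the difference was 1.14-fold (log2 0.19 ± 0.08) and passed the threshold in the main fit while missing it under 22 of 30 other settings.

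Among the myosins, MYO1F (Entrez 4542, chr19:8520778-8577442), a membrane-binding class I motor of leukocytes, was higher under the IRF4 guide in every line. H929 libraries had 16.5, 15.9 and 21.2 CPM under the IRF4 guide and 0.399, 0.625 and 0.512 CPM under the EV guide. MM1S libraries had 110.2, 116 and 140.4 CPM under the IRF4 guide and 43.4 and 47.9 CPM under the EV guide. RPMI-8226 libraries had 63.1, 49.4 and 68.8 CPM under the IRF4 guide and 16.7, 15.6 and 19.1 CPM under the EV guide. The groups did not overlap, and the IRF4 guide level in H929 came close to the EV level in RPMI-8226.

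OPM2 had the lowest MYO1F levels, 2.94, 3.13 and 4.57 CPM under the IRF4 guide against 0.149, 0.119 and 0.0440 CPM under the EV guide, the EV values resting on 4, 1 and 1 counts. The fitted fold changes were 37.2-fold in H929 (log2 5.22 ± 0.24), 32.2-fold in OPM2 (5.01 ± 0.40), 3.56-fold in RPMI-8226 (1.83 ± 0.14) and 2.67-fold in MM1S (1.42 ± 0.15). The OPM2 value was 5.64 without EV replicate 1 of that line and 3.87 from the deposited log2 RPKM, so its order against H929 is not settled.

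MYO7A (Entrez 4647, chr11:77128246-77215241), a class VII motor best known from the sensory hair cells of the inner ear and from the retina, was likewise higher in every line. MM1S libraries had 47.1, 53.4 and 56.5 CPM under the IRF4 guide and 12.7 and 13.8 CPM under the EV guide. RPMI-8226 libraries had 32.2, 22.1 and 25.9 CPM under the IRF4 guide and 8.11, 8.14 and 9.10 CPM under the EV guide. These differences were log2 1.97 ± 0.18 in MM1S and 1.67 ± 0.15 in RPMI-8226, with no overlap.

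In OPM2, MYO7A had 87, 60 and 69 counts under the IRF4 guide (2.90, 2.80 and 2.86 CPM) and 0 counts in each of the 3 EV libraries. Against a floor of 3 counts over the EV group it was 55.4-fold higher, and the 95% counting interval of the ratio began at 44.7. In H929 there were 39, 11 and 15 counts under the IRF4 guide and 1, 0 and 0 counts under the EV guide, a ratio of 65.7 with a 95% counting interval of 11.4 to 2634. Floors and intervals cover counting error only. MYO7A was thus at or near 0 counts under the EV guide in both lines.

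MYO1G (Entrez 64005, chr7:44962662-44979015), a class I motor of lymphocyte membranes, was not measurably expressed in any group. Its counts summed to 15 under the IRF4 guide and 10 under the EV guide in H929, to 10 and 11 in OPM2, to 9 and 5 in RPMI-8226 and to 4 and 0 in MM1S. No library had more than 9 counts, and no difference was detectable at this depth.

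**Figure D1:**
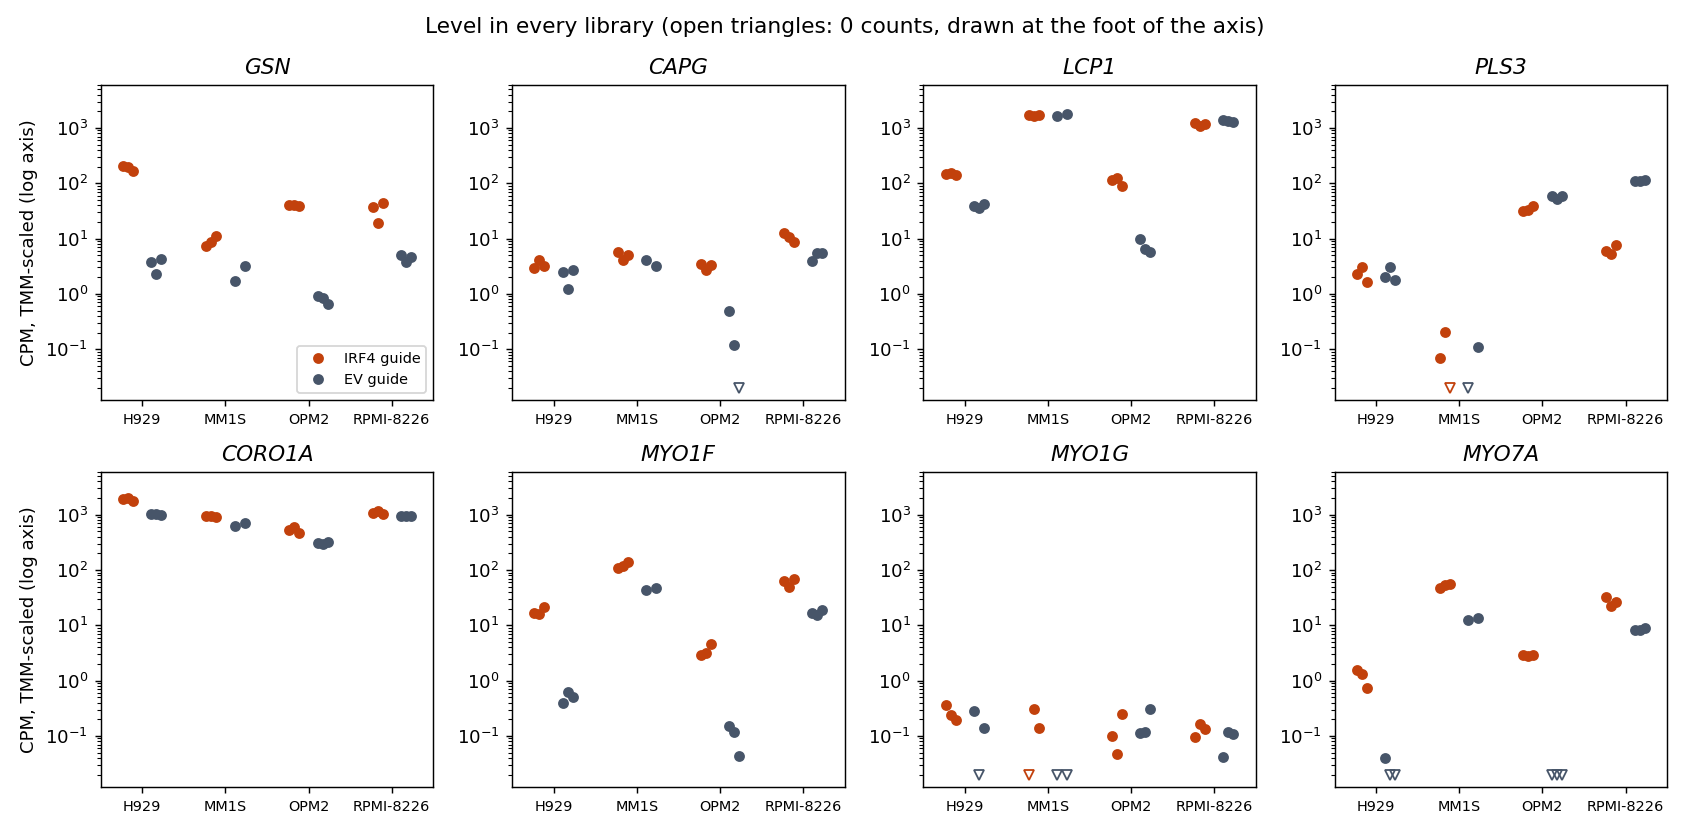
Level of each of the 8 genes in every library, as TMM-scaled CPM on a log axis, with IRF4 guide libraries (orange) left of EV guide libraries (grey) in each line; open triangles at the foot mark 0 counts. GSN, MYO1F and MYO7A stand higher under the IRF4 guide in all 4 lines, LCP1 in H929 and OPM2, and PLS3 stands lower in OPM2 and RPMI-8226.

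**Figure D2:**
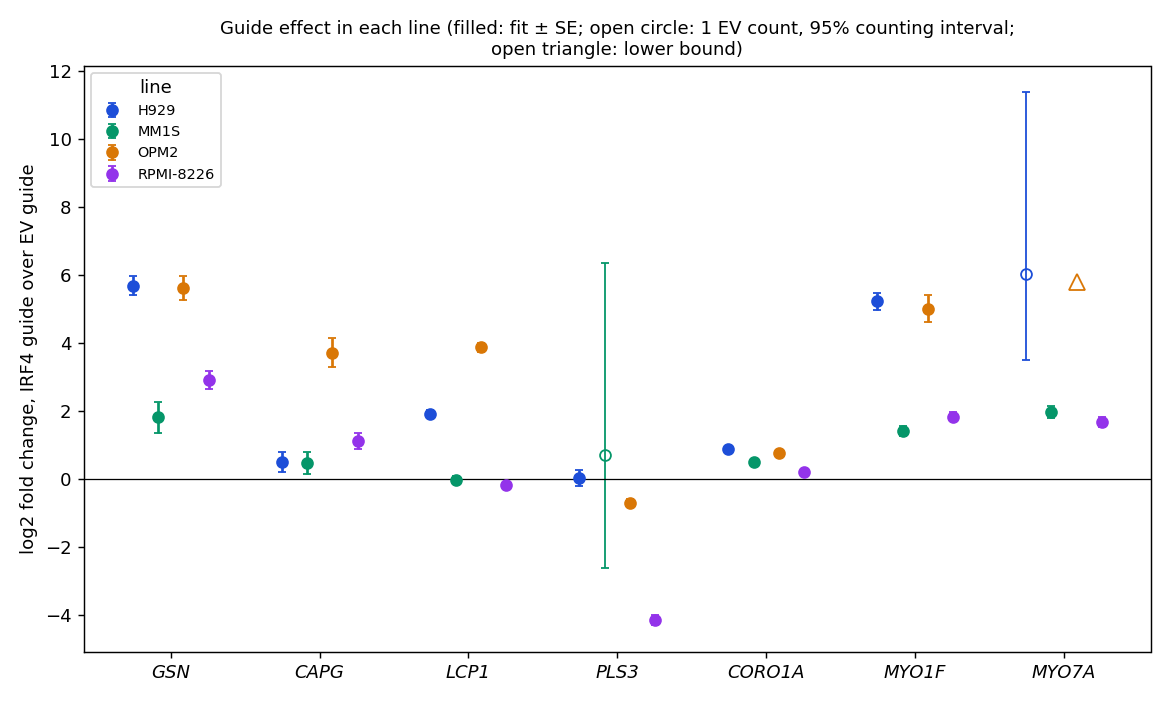
Log2 fold change (IRF4 guide over EV guide) for the 7 fitted genes in each line, as fitted values with SE bars (filled), ratios against a single EV count with 95% counting intervals (open circles) or a lower bound against 0 EV counts (open triangle). The values run from -4.15 for PLS3 in RPMI-8226 to 5.68 for GSN in H929 among the filled points.

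The calls of the 7 fitted genes at an adjusted p under 0.05 (edgeR's quasi-likelihood test, Benjamini-Hochberg over 16468 genes) were part of what proposed the set, so nothing is read from their number. Under the IRF4 guide, 5 members were called higher and 0 lower in H929, where 32.9% of all fitted genes were called higher and 26.1% lower. In MM1S 4 were called higher and 0 lower, against 19.4% and 15.2% of all genes. In OPM2 it was 6 higher and 1 lower, against 23.3% and 20.2%. In RPMI-8226 it was 5 higher and 1 lower, against 19.2% and 14.7%, and on the average of the lines 6 higher and 0 lower, against 32.6% and 25.1%.

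Counted over all 8 members, IRF4 guide libraries all stood above EV guide libraries for 6 genes in H929 and in OPM2 and for 5 in MM1S and in RPMI-8226. The share of fitted genes for which this held was 34.4% in H929, 28% in OPM2, 31.4% in MM1S and 24.8% in RPMI-8226. They all stood below for 0 members in H929 and MM1S (27.7% and 24% of fitted genes), 1 in OPM2 (23.9%) and 2 in RPMI-8226 (18.4%). The median log2 fold change of the 7 fitted members was 3.87 in OPM2, 1.90 in H929, 1.11 in RPMI-8226 and 0.66 in MM1S, and that of all fitted genes 0.03 in OPM2, 0.10 in H929, 0.04 in RPMI-8226 and 0.07 in MM1S. The MM1S median is the fitted value of PLS3 itself, which rests on 4 counts under the IRF4 guide and 1 under the EV guide. That value was 3.86 without EV replicate 3 of MM1S and -0.32 without EV replicate 2.

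The lines differed widely in these genes before any IRF4 guide effect. Under the EV guide OPM2 had the lowest level of GSN, CAPG, LCP1, CORO1A and MYO1F, without overlap with the next line. LCP1 ran from 7.28 CPM in OPM2 over 38.8 in H929 and 1324 in RPMI-8226 to 1717 CPM in MM1S, each step without overlap. MYO1F kept the same order of lines, from 0.104 CPM in OPM2 over 0.512 in H929 and 17.1 in RPMI-8226 to 45.6 CPM in MM1S. MYO7A was at 0 counts in OPM2 and 1 count in H929, which overlapped, and reached 8.45 CPM in RPMI-8226 and 13.3 CPM in MM1S.

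PLS3 had its own order. It was lowest in MM1S, the line richest in LCP1, and ran over 2.28 CPM in H929 and 56.7 in OPM2 to 111 CPM in RPMI-8226, without overlap between neighbours. For GSN, MM1S, H929 and RPMI-8226 followed OPM2 at 2.48, 3.46 and 4.47 CPM with overlapping neighbours. For CAPG, the 2 highest lines, MM1S at 3.66 and RPMI-8226 at 4.93 CPM, overlapped. CORO1A spanned the narrowest range, from 311 CPM in OPM2 to 1014 CPM in H929, a ratio of 3.26.

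Levels per gene length, from the deposited log2 RPKM values (reads scaled by library size and gene length), allow genes of a family to be set side by side. Among the 3 plastins, LCP1 took 73.7 ± 5.33% of the summed RPKM in OPM2 under the IRF4 guide and 13.5 ± 2.59% under the EV guide (SD, n = 3 each). PLS3 took 20.9 ± 4.29% under the IRF4 guide and 73.2 ± 1.79% under the EV guide there. PLS3 was therefore the leading plastin of OPM2 under the EV guide and LCP1 under the IRF4 guide, in every library. The sum of the 3 plastins was 39.7 ± 4.10 RPKM under the IRF4 guide and 17.6 ± 0.910 RPKM under the EV guide in that line.

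In the other lines LCP1 led under both guides. Its share was 94.1 ± 0.649% under the IRF4 guide and 72.7 ± 4.73% under the EV guide in H929, where PLS1, a plastin of the intestine and kidney, took 4.97% and 23.2%. In RPMI-8226 the LCP1 share was 97.8 ± 0.174% under the IRF4 guide and 90.9 ± 0.659% under the EV guide, and that of PLS3 0.365 ± 0.0505% and 6.69 ± 0.500%. In MM1S LCP1 exceeded 99.8% in every library. The LCP1 share was higher in every IRF4 guide library than in any EV guide library of the same line, in all 4 lines. In 2 of them LCP1 itself was not higher. Its mean was 498 RPKM under the IRF4 guide and 546 under the EV guide in MM1S, and 332 and 338 in RPMI-8226. Under the IRF4 guide PLS1 and PLS3 took less in RPMI-8226, and PLS1 took less in MM1S, at 0.0312% against only 0.119% under the EV guide. PLS3 in MM1S took 0.00562% under the IRF4 guide and 0.00516% under the EV guide, on very few counts.

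Within the gelsolin family of 8 genes, FLII, a large and widely expressed relative, took most of the RPKM in all EV groups. GSN took 47.9 ± 2.36% under the IRF4 guide and 2.23 ± 0.615% under the EV guide in H929, 14.98 ± 1.21% and 0.706 ± 0.0917% in OPM2, 9.29 ± 3.92% and 1.56 ± 0.244% in RPMI-8226, and 3.14 ± 0.638% and 1.41 ± 0.553% in MM1S. Only in H929 under the IRF4 guide did GSN reach a level like that of FLII, which then took 46.0 ± 1.65%.

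Of 8 class I myosin genes, 5 had deposited RPKM values. MYO1F took 50.3 ± 2.48% of their sum under the IRF4 guide and 24.1 ± 1.29% under the EV guide in MM1S, 30.3 ± 3.97% and 12.3 ± 1.35% in RPMI-8226, 17.5 ± 1.38% and 0.552 ± 0.142% in H929, and 4.96 ± 1.36% and 0.384 ± 0.135% in OPM2. In MM1S it was the leading class I myosin under the IRF4 guide, ahead of MYO1D at 27.0 ± 3.01%, and MYO1D led under the EV guide at 41.2 ± 2.96%. CORO1A made up 83.5% of coronin RPKM under the IRF4 guide and 77.1% under the EV guide in OPM2, 88.7% and 88.8% in H929, 88.4% and 85.0% in RPMI-8226, and 77.2% and 74.1% in MM1S.

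**Figure D3:**
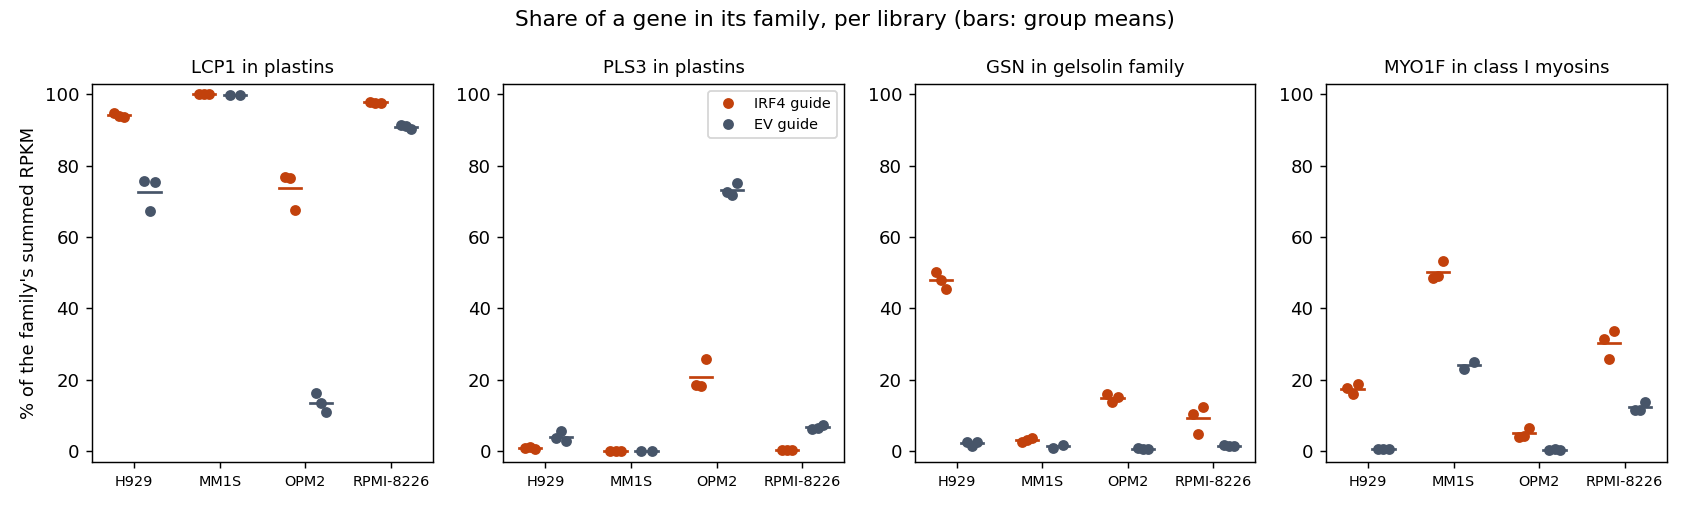
Share of LCP1 and PLS3 among the 3 plastins, of GSN among the gelsolin family and of MYO1F among the class I myosins with values, as per cent of the family's summed RPKM, per library (points) with group means (bars), IRF4 guide left of EV guide. In OPM2 the mean PLS3 share is 20.9% under the IRF4 guide and 73.2% under the EV guide, and the mean LCP1 share 73.7% and 13.5%.

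The rest of the actin system was followed in 122 genes of 11 lists written from general knowledge, of which 117 were fitted. On the average of the lines 55 rose, 23 fell and 39 did not pass the threshold (edgeR's quasi-likelihood test, adjusted p under 0.05), and their median log2 fold change was 0.12, against 0.11 for all genes. By line, 60 rose and 24 fell in H929, 41 and 10 in OPM2, 40 and 25 in RPMI-8226, and 33 and 19 in MM1S. The effect differed between lines for 85 of the 117 (F test with 3 degrees of freedom, same adjustment), against 48% of all fitted genes. Of all fitted genes 32.6% were called higher and 25.1% lower on the average. By line it was 32.9% and 26.1% in H929, 23.3% and 20.2% in OPM2, 19.2% and 14.7% in RPMI-8226, and 19.4% and 15.2% in MM1S. Whether the lists, as a whole or singly, differ from other genes was not tested.

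Of these, 16 genes rose in all 4 lines and 0 fell in all 4 (edgeR), where 5.14% of all fitted genes were called higher in all 4 lines and 3.83% lower. At an unadjusted p under 0.05 the count of falls in all 4 lines was 1, and it was 0 with DESeq2 and 1 with limma on the log2 RPKM. The 16 were the myosin II heavy chain MYH9, the Arp2/3 subunit ARPC1B, the nucleation promoters WAS and WASF2, the WAVE complex members NCKAP1L and CYFIP2, the cortactin relative HCLS1, the formins FMNL1 and FMNL3, the Rac activators DOCK2 and VAV1, CNN2, LASP1, RHOC, RAC2 and ARHGDIB. NCKAP1L, HCLS1, DOCK2, VAV1, RAC2 and WAS are known as blood cell genes. The lists hold further blood cell genes that were not called in all 4 lines, and whether such genes rose more often was not tested.

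The nearest relatives of MYO1F and MYO7A had no call on the average of the lines. Of the 4 fitted class I myosins of the list, 0 were called on the average, while 0 were called in OPM2, 1 each in H929 and MM1S, and 2 in RPMI-8226. The counts of 0 on the average and in OPM2 were also 0 at an unadjusted p under 0.05 and with DESeq2 and limma. MYO1E, the nearest relative of MYO1F, fell by 0.69 ± 0.14 on the log2 scale in H929 (adjusted p = 0.000107, edgeR) and rose by 0.97 ± 0.29 in MM1S (adjusted p = 0.00818). MYO1C was at log2 -0.00 ± 0.05 and MYO1D at -0.07 ± 0.05 on the average. MYO7B, a class VII myosin of the gut brush border, was not called in any line. Its errors were wide, with log2 -2.71 ± 1.89 in H929, -2.62 ± 1.67 in OPM2 and 1.60 ± 0.95 in MM1S. The missing calls therefore do not show that MYO7B stayed level.

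PLS1 fell on the average (log2 -0.62 ± 0.11, adjusted p = 8.44e-06, edgeR), with -1.75 ± 0.34 in MM1S and no call in OPM2. The filamin FLNA, which crosslinks filaments, rose by 0.31 ± 0.05 (adjusted p = 1.23e-06), and the spectrin SPTBN1 fell by 0.45 ± 0.04 (4.32e-11). FLNA went in different directions, up by 1.00 ± 0.09 in H929 and down with log2 -0.27 ± 0.10 in MM1S (adjusted p = 1.26e-10 and 0.0433). In the list of bundlers and crosslinkers 3 of 10 rose and 2 fell on the average.

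SCIN, the relative of gelsolin with the same severing activity, was higher in H929, OPM2 and RPMI-8226 (adjusted p = 4.01e-06, 0.00231 and 0.0222, edgeR) but at very low levels in the first 2. Its counts summed to 26 under the IRF4 guide and 0 under the EV guide in H929 and to 17 and 1 in OPM2, and in RPMI-8226 it rose by log2 0.68 ± 0.23. FLII rose by 0.24 ± 0.04 on the average (adjusted p = 3.38e-06), TWF2, which binds monomers and filament ends, by 0.43 ± 0.05 (2.78e-08), and CAPZB, a subunit of the general capping protein, by 0.17 ± 0.04 (0.000134). In that list 5 of 15 rose and 4 fell.

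Of 6 further coronins 4 rose on the average and 0 fell, nor did any at an unadjusted p under 0.05 or with DESeq2 or limma. CORO1B rose by 0.78 ± 0.09 (adjusted p = 6.99e-09, edgeR), CORO7 by 0.24 ± 0.06 (0.000500) and CORO1C by 0.21 ± 0.03 (4.58e-06). CORO1C fell in RPMI-8226, with log2 -0.25 ± 0.07 (adjusted p = 0.00369), while it rose in the other 3 lines. CORO1A, at larger absolute levels, thus sat among relatives of which 4 of 6 rose on the average, where 32.6% of all fitted genes did. By line 5 of the 6 rose in H929, 3 in OPM2, 2 in MM1S and 1 in RPMI-8226, where 1 fell. Whether coronins differ from other genes was not tested.

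The motors of contraction moved unevenly. MYH9 rose by 0.82 ± 0.03 on the average (adjusted p = 1.95e-18, edgeR), with 1.55 ± 0.06 in H929 and 0.32 ± 0.06 in RPMI-8226, and MYH10, the non-muscle heavy chain common in brain, fell with log2 -0.56 ± 0.05 (5.37e-11). MYL12A, a light chain, rose by 0.18 ± 0.05 (0.00208). Of 7 genes of non-muscle myosin II 4 rose and 1 fell, and of 13 fitted other unconventional myosins 5 rose and 2 fell. MYO19, a mitochondrial myosin, fell with log2 -0.91 ± 0.06 (1.17e-14), MYO5B, a cargo motor, with -0.75 ± 0.06 (7.21e-13), and MYO18A rose by 0.52 ± 0.04 (2.07e-11).

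Among nucleators, 12 of 21 nucleation promoters and formins rose and 3 fell, as did 6 and 2 of 9 Arp2/3 genes. FMNL3 rose by 1.28 ± 0.06 (adjusted p = 1.02e-17, edgeR), CYFIP2 by 1.05 ± 0.05 (3.41e-17), and NCKAP1L and ARPC1B by 0.85 ± 0.04 each (4.97e-18 and 2.62e-16). FMNL3 had a like size in all lines, 1.501 in OPM2, 1.31 in H929, 1.18 in RPMI-8226 and 1.13 in MM1S, and its difference between lines did not pass the threshold (adjusted p = 0.169). The Arp2/3 subunits ARPC5 and ARPC5L, which take the same place in the complex, went opposite ways, 0.23 ± 0.04 (3.41e-06) and -0.32 ± 0.03 (1.90e-09).

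ACTB, a cytoplasmic actin, had log2 0.15 ± 0.04 on the average (adjusted p = 0.00286, edgeR), called only in H929 among the 4 lines at 0.75 ± 0.08. ACTG1, the other cytoplasmic actin, named after its values were seen, was not called on the average (-0.08 ± 0.04) and fell in RPMI-8226, with log2 -0.42 ± 0.09 (adjusted p = 0.000278). The monomer binder TMSB4X rose by 0.24 ± 0.04 (8.54e-06) on the average but fell in MM1S with log2 -0.33 ± 0.09 (0.00435), and CAP1 rose by 0.30 ± 0.04 (2.48e-08). Of 8 actins and monomer binders 3 rose and 1 fell.

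RHOC rose by 1.05 ± 0.06 (adjusted p = 1.17e-14, edgeR), RAC2, the Rac of blood cells, by 0.91 ± 0.04 (1.01e-16) and ARHGDIB by 0.87 ± 0.04 (1.26e-17). Of 7 fitted tropomyosins and calponins 3 rose and 1 fell, with LASP1 up by 0.67 ± 0.04 (1.55e-14), CNN2 up by 0.39 ± 0.04 (3.13e-10) and TPM3 at -0.20 ± 0.04 (5.75e-05).

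**Figure D4:**
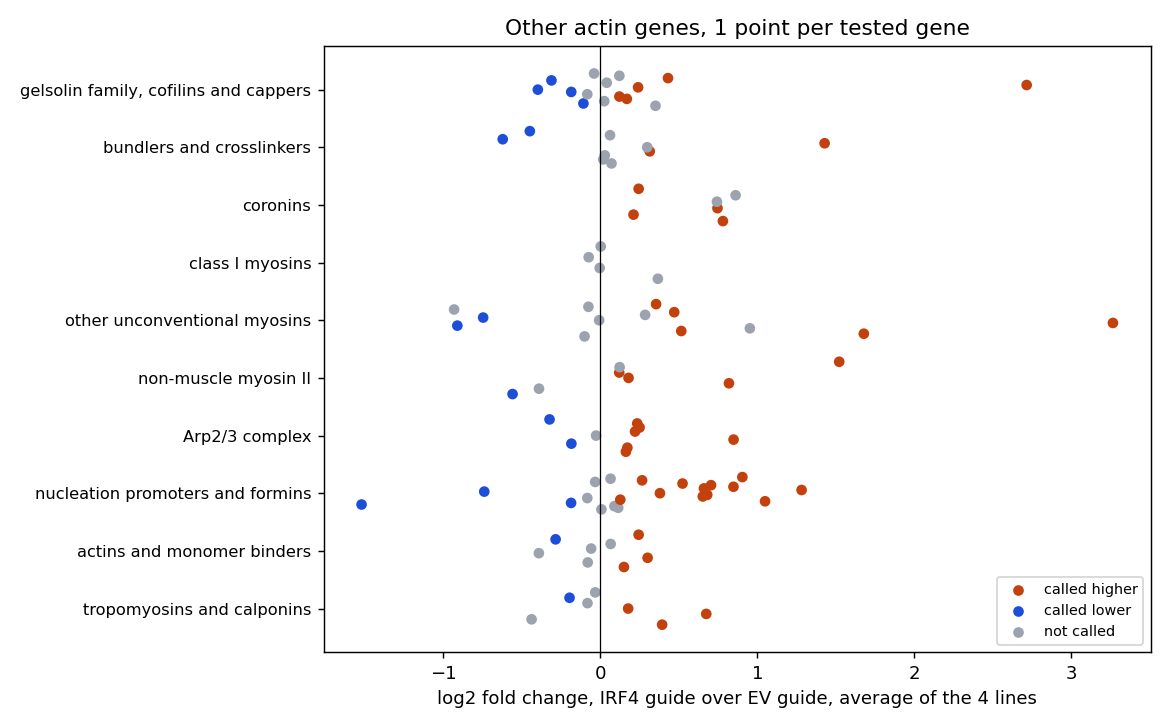
Log2 fold change (IRF4 guide over EV guide), averaged over the 4 lines, of 99 other actin genes in 10 lists (1 point each), with genes called higher in orange, lower in blue and not called in grey. Of the genes drawn, 44 are called higher, 16 lower and 39 are not called, and none of the 4 class I myosins is called. The fitted value of a gene with a group at 0 counts depends on the prior count of the fit.

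Across the 23 libraries, which share 4 lines and so follow line as much as guide, the levels of LCP1, MYO1F and MYO7A ran together, with Pearson r of log2 CPM of 0.94 for each pair of them. GSN followed CORO1A at 0.66 and LCP1 at 0.26, and PLS3 had r under 0 with each other fitted member. Among 16467 other genes those most like each member were FGD4 (0.973) and LAPTM5 (0.966) for LCP1, FGD4 and CD86 (0.979 each) for MYO1F, MAML2 (0.983) and TRAF5 (0.973) for MYO7A, PACS1 (0.978) and CYTH4 (0.972) for CORO1A, TADA3 (0.961) and LUCAT1 (0.932) for GSN, SHANK2 (0.953) and DDX54 (0.942) for PLS3, and NMI (0.923) and ALOX5AP (0.912) for CAPG. These are descriptions over libraries that are not independent of each other.

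The summed levels of myeloid and of T and NK cell markers were also higher under the IRF4 guide, except that the myeloid sums overlapped in OPM2. Such sums can rest on few genes. In no group did more than 4 of the 10 markers of either list average above 1 CPM. All 8 plasma cell and myeloma markers stood above 1 CPM in every group. Their sum was higher under the IRF4 guide in H929, MM1S and RPMI-8226 and lower in OPM2. It was 16686 to 17745 CPM under the IRF4 guide and 12942 to 14972 CPM under the EV guide in H929, and 7000 to 7521 and 6776 to 6894 CPM in MM1S. In OPM2 it was 8720 to 9503 and 10192 to 11231 CPM, and in RPMI-8226 4122 to 5293 and 3505 to 3836 CPM. The 10 myeloid markers summed to 35.5 to 39.5 CPM under the IRF4 guide and 2.16 to 3.00 CPM under the EV guide in H929, 17.5 to 23.8 and 6.32 to 9.04 CPM in MM1S, 3.65 to 6.31 and 2.86 to 4.35 CPM in OPM2, and 50.4 to 56.4 and 32.1 to 37.6 CPM in RPMI-8226. MPO was at 0 counts in 6 of the 8 groups.

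The 10 T and NK cell markers summed to 153 to 157 CPM under the IRF4 guide and 13.8 to 16.03 CPM under the EV guide in H929, 11.2 to 15.2 and 5.47 to 6.12 CPM in MM1S, 11.8 to 19.9 and 0.949 to 1.32 CPM in OPM2, and 17.4 to 18.98 and 7.90 to 11.5 CPM in RPMI-8226. CD3D was at 0 counts in all groups but 2, both of them IRF4 guide groups. Stromal and epithelial markers, among which the collagen gene COL1A2 was at 0 counts in all 8 groups, summed to 22.7 to 38.4 CPM under the IRF4 guide and 104 to 152 CPM under the EV guide in H929, 3.05 to 3.95 and 7.13 to 7.92 CPM in MM1S, 2.67 to 3.53 and 7.80 to 9.13 CPM in OPM2, and 192 to 206 and 234 to 244 CPM in RPMI-8226. The erythroid and megakaryocyte list stayed under 5.05 CPM in every library. In bulk RNA fewer cells of a type and less RNA per cell cannot be told apart, and the part of these markers in the values above was not tested.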

How the data were processed

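RNA sequencing libraries of 4 myeloma lines were analysed from the raw counts per Entrez gene and the log2 RPKM values that the authors deposited. The submitters' processing notes name Subread, featureCounts, limma and the GRCh38 (hg38) build; versions, strand setting and normalization of the RPKM are not given in the sources used here. Per the labels' protocols, RNA came from RNeasy Plus Mini columns and libraries from a TruSeq RNA kit. No value column was left unmapped to a sample, and no library pair held identical values. Rows without a symbol (490 genes, 0.110 to 0.292% of counts) stayed in the fit.

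The counts went into edgeR 4.0.16 (R 4.3.3): filterByExpr by group (minimum count 10), TMM factors (0.914 to 1.08) and 1 robust quasi-likelihood fit of 8 group means over all 23 libraries. The contrasts were the IRF4 guide against the EV guide per line, their equal-weight average, and an F test of the difference between lines, with Benjamini-Hochberg adjustment over 16468 genes and a threshold of 0.05. SE is the size of the log2 change over the square root of F. The fit was tested on simulated data with the same mean in all lines, the same spread for every gene, and changes only in well-counted genes. That test does not bear on genes with few or no counts in a group. RPKM shares use 2 to the power of the deposited log2 values, and a linear level near 0 there includes the authors' offset. Figures and sequence searches used Python 3.11.15, pandas 2.3.3 and matplotlib 3.10.9. Gene spans and sequences came from RefSeq (GRCh38.p14).

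The members, the gene lists and the tests were chosen with earlier results of these data known. Named were all members and IRF4; in each list up to 3 genes called on the average with the smallest adjusted p; SCIN, PLS1, MYO1C, MYO1D, MYO1E, MYO7B, CORO1B, CORO1C and CAPZB as nearest relatives; and the 2 genes most like each member by Pearson r of log2 CPM (prior count 1). Genes called in all 4 lines were named after their values were seen. Marker lists covered plasma cells and myeloma, erythroid cells and megakaryocytes, stroma and epithelium, T and NK cells, and myeloid cells. Alternatives were RLE factors, DESeq2 1.42.0, no filter, each line alone, replicate blocks, limma 3.58.1 on the log2 RPKM, and leaving out each library. Values of 1 gene and 1 list are not reported here.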

Additional observations from a re-analysis of the deposited data

Results flagged for a closer look

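For LCP1 every IRF4 guide library stood above every EV guide library in H929 (log2 1.90) and OPM2 (3.87), and every one stood below in RPMI-8226 (-0.18), where the difference did not pass the threshold. In MM1S the groups overlapped (-0.02). The difference between lines was not tested, because the gene was chosen on these values.

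Of 35 named genes of the actin lists, 29 had a guide effect that differed between lines (edgeR F test with 3 degrees of freedom, adjusted over all fitted genes). Most of the 35 were named for a small adjusted p of their average effect in the same fit. Their count therefore cannot be set against the 48% of all fitted genes that differed. In the whole lists 85 of 117 fitted genes differed. Among severing and capping genes the adjusted p was 0.000327 for SCIN, 0.000535 for FLII, 0.000312 for CAPZB and 0.00338 for TWF2. Among crosslinkers it was 1.25e-08 for FLNA, 1.07e-06 for SPTBN1 and 0.00105 for PLS1. For coronins it was 5.32e-07 for CORO1C and 0.00369 for CORO1B.

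For myosins it was 3.26e-11 for MYH9, 4.2e-06 for MYH10, 2.78e-11 for MYO5B, 2.87e-08 for MYO19, 5.82e-05 for MYO18A, 0.000184 for MYO1E and 0.00159 for MYO1C. For nucleators it was 1.69e-08 for ARPC1B, 0.0124 for ARPC5, 0.00998 for ARPC5L, 1.47e-06 for NCKAP1L and 6.81e-10 for CYFIP2. For actin and its monomer binders it was 3.04e-07 for ACTB, 1.78e-06 for TMSB4X and 1.15e-06 for CAP1. For the remaining lists it was 4.39e-05 for LASP1, 0.0117 for TPM3, 9.42e-12 for ARHGDIB, 7.57e-08 for RAC2 and 1.03e-06 for RHOC.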

How the results depend on the processing

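No value changed sign where it was called, 46 of 1042 member values moved by more than the spread between replicates, and counts stayed within 1.5 times the main count in 643 of 650 comparisons with an alternative. The 7 others were these. On the deposited log2 RPKM with limma 0 members were lower in OPM2 (main 1), 1 on the average (main 0), and 16 other actin genes in RPMI-8226 (main 25). DESeq2 also called 1 member, PLS3, lower on the average. With each line fitted alone 2 members were lower in RPMI-8226 (main 1) and 31 other actin genes in MM1S (main 19). With a replicate block within each line 2 members were lower in RPMI-8226, PLS3 and LCP1. The cause was not tested.

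Leaving out 1 library at a time left 50 to 56 other actin genes higher and 23 to 24 lower on the average. ACTB on the average, at 0.134, no longer passed with limma on log2 RPKM, the 1 change of call among 1044 tests of the named actin genes' average effects. Their effects per line were repeated only as counts. Among members, calls changed for CORO1A in RPMI-8226 (22 settings), LCP1 in RPMI-8226 (2), PLS3 on the average (2), and in 1 setting each for GSN in MM1S, CAPG in RPMI-8226 and PLS3 in OPM2. The labels do not say that a replicate number marks a batch. All 11 same-numbered pairs had a correlation of deviations above 0 (0.0213 to 0.160), and 5 were over 0.1, all 3 of OPM2 among them. Of the differently numbered pairs, 21 of 22 were below 0. Deviations from a group mean sum to 0 within the group, which pushes these pairs below 0 once the same-numbered pairs are above it. They are therefore no separate sign of pairing. The same-numbered values are a hint of pairing from the data, not the design, and neither block changed a member's call in OPM2. A replicate block shared by the lines gave 56 other actin genes higher and 23 lower on the average, and one within lines 57 and 24. Depth limits CAPG, MYO1F and MYO7A in OPM2, MYO7A in H929, PLS3 in MM1S and MYO1G in every line, where groups held few or no counts.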
